A study of Homo sapiens with 14 samples.

Results

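The gene counts were followed for genes that act on acid and lactate, namely the carbonic anhydrases CA2, CA9 and CA12, the monocarboxylate carriers SLC16A1, SLC16A3 and SLC16A14, the bicarbonate transporters SLC4A2 and SLC4A7, and BSG. These 9 genes were taken by gene symbol, and all of them were found among the 23106 symbols counted in each of the 14 libraries.

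Cells that rely on glycolysis export lactate together with a proton, and the acid that they make by respiration leaves as carbon dioxide. Carbonic anhydrases interconvert carbon dioxide and bicarbonate, either in the cytosol (CA2) or with the active site facing the outside of the cell (CA9 and CA12). SLC16A1 and SLC16A3 encode the carriers MCT1 and MCT4, which move lactate and protons, and BSG encodes basigin, which these carriers need to reach the plasma membrane. SLC4A2 exchanges chloride for bicarbonate across the membrane and SLC4A7 carries sodium and bicarbonate into the cell. CA9 and SLC16A3 are textbook targets of the hypoxia-inducible factors (HIF). SLC16A14 belongs to the same family as MCT1 and MCT4 by sequence, and its role is poorly defined.

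The PC3 line derives from human prostate cancer and the HCT116 line from human colorectal cancer, and no allele or agent beyond oxygen is named for either line. Each was held in normoxia (21% O2) or in hypoxia (0.5% O2) for 16 h before polyadenylated RNA was sequenced, with n = 4 for each condition of PC3 and n = 3 for each condition of HCT116, which the study's methods call biological replicates. PC3 was grown in DMEM/Ham's F12 and HCT116 in McCoy's 5a, so line and medium cannot be told apart. Each line is a single line of its tissue and cannot stand for that tissue.

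The total per library ran from 71.2 to 151 (in units of 1000000 gene counts). Levels are given as CPM, counts per 1000000 after scaling by edgeR's TMM factors, and a count of 3, the limit that a count of 0 allows, stood at 0.0199 to 0.0421 CPM of the library total (counting error only). All 5 epithelial markers (KRT8, KRT18, KRT19, CDH1 and EPCAM) had a mean of at least 1 CPM in both lines, while 3 of 7 prostate markers did so in PC3 and 2 of 7 in HCT116, and 2 of 7 intestinal markers did so in HCT116 and 1 of 7 in PC3 (CEACAM5, at 9.22 to 40.1 CPM). KLK3, KLK2 and FOLH1 never passed 3 counts in PC3, nor did CDH17 and CEACAM5 in HCT116. The 4 leukocyte markers summed to at most 0.905 CPM in any library, the 4 fibroblast markers to at most 12.6 and the 4 endothelial markers to at most 4.54. NDRG1, EGLN3, ANKRD37, PDK1 and VEGFA, known to rise in hypoxia, were all higher in hypoxia in both lines (5 of 5 past the threshold in each). The PC3 libraries of replicate 1 stood apart from the other 6 on the third principal component (27.5 and 45.1, against -25.5 to 3.78), and results that change without them are given with both values. PC3 hypoxia replicate 4 stood at 52.2 on the second component, against 1.81 to 19.4 for the other hypoxic PC3 libraries, and its pair had the largest change of the 4 pairs for 6 of the 9 genes (CA9, SLC16A1, SLC16A3, SLC16A14, SLC4A7 and BSG). Without it, no call of the 9 genes in the PC3 response changed.

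HIF binds a short core sequence, ACGTG or GCGTG, near genes that it drives. The 250 bases before the start site were read from RefSeq (GRCh38.p14) for 7 of the 9 genes, with 16 start sites in all, and both strands were searched for the 2 motifs. Among 35116 promoters of this length, 18.5% held ACGTG, 32.2% held GCGTG and 43.2% held either. The promoters of CA9, CA12 and SLC16A3 are shown because these 3 genes had the largest rises in HCT116 among the 9, and that of SLC16A14 because it had the largest fall of the 9 genes. Sequences run 5′ to 3′ on the strand of the gene, with every match in capitals, where CACGT and CACGC are the motifs on the opposite strand.
CA9 (chr9:35673678-35673927, plus strand): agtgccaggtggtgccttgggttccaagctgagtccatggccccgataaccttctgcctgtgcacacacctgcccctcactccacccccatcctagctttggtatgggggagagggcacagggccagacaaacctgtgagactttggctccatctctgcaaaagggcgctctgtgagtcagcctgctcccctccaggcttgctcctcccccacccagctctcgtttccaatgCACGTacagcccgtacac
CA12 (chr15:63381847-63382096, minus strand): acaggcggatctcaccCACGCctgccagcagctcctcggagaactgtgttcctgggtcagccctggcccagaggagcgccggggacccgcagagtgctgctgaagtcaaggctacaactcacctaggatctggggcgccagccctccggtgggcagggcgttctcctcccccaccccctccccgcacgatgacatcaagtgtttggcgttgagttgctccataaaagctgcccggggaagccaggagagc
SLC16A3, the second of 5 start sites (chr17:82228792-82229041, plus strand): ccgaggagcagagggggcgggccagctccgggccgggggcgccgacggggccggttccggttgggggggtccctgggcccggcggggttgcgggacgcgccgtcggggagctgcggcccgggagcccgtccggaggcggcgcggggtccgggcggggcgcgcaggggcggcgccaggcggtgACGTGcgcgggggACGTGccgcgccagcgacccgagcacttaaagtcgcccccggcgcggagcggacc
SLC16A14 (chr2:230068925-230069174, minus strand): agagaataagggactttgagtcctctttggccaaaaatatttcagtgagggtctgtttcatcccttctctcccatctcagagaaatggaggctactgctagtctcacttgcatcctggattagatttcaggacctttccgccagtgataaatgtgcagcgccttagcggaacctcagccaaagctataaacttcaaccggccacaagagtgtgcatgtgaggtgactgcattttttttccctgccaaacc
With the base before the start counted as -1, CA9 held 1 ACGTG at -18 to -14 and CA12 held 1 GCGTG at -234 to -230, both on the opposite strand. Among the start sites of SLC16A3, only the second, shown above, held ACGTG, with 2 copies at -68 to -64 and at -55 to -51. Of its other start sites, 1 had 3 copies of GCGTG, 1 had a single copy and 2 had neither motif. SLC16A14 had neither motif in this window. SLC4A2, which edgeR called in neither line, had a match at every start site. It had up to 6 matches to ACGTG at a start site, more than any promoter shown, where CACGTG matches on both strands. SLC4A7, which fell in PC3, had 2 copies of GCGTG at its second start site and neither motif at its first. BSG had 2 matches to ACGTG and 4 to GCGTG at its second start site and neither motif at its first. These matches describe letters only.

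In hypoxic PC3 cells, CA9 and SLC16A3 rose and SLC16A14 and SLC4A7 fell, and CA12 was called higher only with a replicate block. In hypoxic HCT116 cells, CA9, CA12, SLC16A3 and BSG rose and SLC16A14 fell. In PC3, 4 of the 8 genes that passed the filter on low counts (CA2 did not) were past the threshold of an adjusted p under 0.05 (2 higher and 2 lower), where 11.3% of all genes tested were past it, 6.03% higher and 5.29% lower. With the replicate number as a block, 5 of the 8 were past it, with CA12 added, against 28.5% of all genes. In HCT116 it was 5 of 9 (4 higher and 1 lower), against 25.9% of all genes, 14.6% higher and 11.3% lower. The median log2 fold change was 0.18 over the 8 genes in PC3, beside 0.0023 over all genes, and 0.084 over the 9 in HCT116, beside 0.0018. Without the PC3 libraries of replicate 1, a setting chosen after the data were seen, 4 of the 8 were past the threshold in PC3, against 1783 of 14305 genes. In bulk RNA, fewer cells with a transcript and less of it per cell cannot be told apart.

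**Figure D1:**
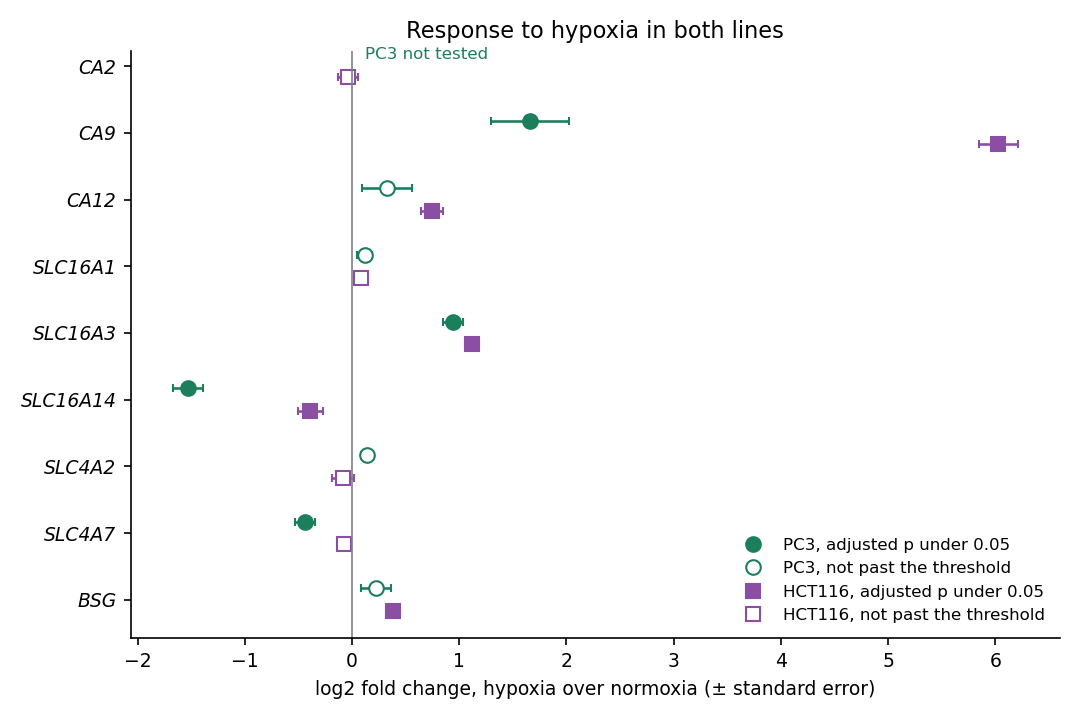
Log2 fold change of each gene, hypoxia over normoxia, in PC3 (green circles, n = 4 per condition) and HCT116 (purple squares, n = 3 per condition). Bars are standard errors and filled symbols passed an adjusted p of 0.05. The HCT116 square of CA9, at 6.03, lies far to the right of every other symbol, and the PC3 circle of SLC16A14, at -1.53, lies farthest to the left.

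CA9, at chr9:35673925-35681156 on the plus strand (GRCh37), was low in both normoxic lines and had the largest difference in response between the lines among the 8 genes tested in both. Its level in normoxic PC3 was 0.193, 0.375, 0.223 and 0.108 CPM in replicates 1 to 4, from 13 to 49 counts, and in hypoxic PC3 it was 0.536, 0.919, 0.796 and 0.611 CPM, from 41 to 77 counts. Every hypoxic PC3 library was above every normoxic one. The means were 0.225 ± 0.112 and 0.715 ± 0.174 CPM (SD, n = 4), a log2 fold change of 1.66 (SE, the standard error, 0.36, and adjusted p = 0.0192 from edgeR after Benjamini-Hochberg adjustment). Within the pairs of the same replicate number, CA9 was between 2.45-fold and 5.67-fold higher in hypoxia, in 4 of 4 pairs. Without hypoxia replicate 2 the adjusted p of the same edgeR test was 0.0631 and without normoxia replicate 3 it was 0.0680. With the replicate number as a block the log2 fold change was 1.72 (SE 0.26, adjusted p = 0.00459, edgeR).

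In HCT116, CA9 went from 0.147, 0.0921 and 0.119 CPM in normoxia (13 to 22 counts) to 7.13, 8.80 and 7.47 CPM in hypoxia (948 to 1224 counts). All 3 hypoxic libraries thus stood far above all other libraries of either line. The means were 0.120 ± 0.0276 and 7.80 ± 0.886 CPM (SD, n = 3), a rise of 65.2-fold (log2 fold change 6.03, SE 0.18, adjusted p = 3.94e-09 from edgeR). The response was 20.4-fold smaller in PC3 than in HCT116, a difference of -4.35 on the log2 scale between the 2 responses (SE 0.45, adjusted p = 7.77e-05, edgeR's test of the interaction of line and oxygen). Of the exon bases of CA9, 35.7% lie opposite exons of ARHGEF39, and the sources used here do not say whether strand was used in counting. ARHGEF39 was at 20.7 ± 0.371 CPM in normoxic and 19.0 ± 0.786 in hypoxic HCT116 (log2 fold change -0.11, adjusted p = 0.218, same edgeR test), and every hypoxic HCT116 library was below every normoxic one, the opposite direction from CA9.

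CA12, the other carbonic anhydrase that faces outwards, lies at chr15:63613577-63674045 on the minus strand and was the carbonic anhydrase of the 3 with the highest level per length in PC3. In HCT116 it rose from 4.27, 5.37 and 5.20 CPM to 8.01, 8.12 and 8.45 CPM, with no overlap between conditions. That was a log2 fold change of 0.74 (SE 0.10, adjusted p = 5.89e-04, edgeR, n = 3). When all 14 libraries shared 1 fit, the adjusted p for HCT116 was 0.0632. In PC3 the replicates spread widely, with 11.1, 17.7, 17.4 and 20.9 CPM in normoxia and 12.7, 23.1, 20.8 and 27.3 CPM in hypoxia. Replicate 1 was lowest in both conditions and the conditions overlapped, yet each hypoxic library was above the normoxic library of its own number, by 1.15-fold to 1.30-fold. Without a block the log2 fold change in PC3 was 0.33 (SE 0.23, adjusted p = 0.405), and with the replicate number as a block it was 0.31 (SE 0.056, adjusted p = 0.00821, both by edgeR). The response of PC3 minus that of HCT116 was -0.41 on the log2 scale without the block (adjusted p = 0.586) and -0.43 with it (adjusted p = 0.0314, edgeR interaction).

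CA2, the cytosolic enzyme at chr8:86376197-86393722, was detected in a single line. HCT116 held 35.0, 35.9 and 37.1 CPM in normoxia and 36.9, 37.5 and 29.7 CPM in hypoxia, and the conditions overlapped (log2 fold change -0.03, SE 0.091, adjusted p = 0.812, edgeR). In PC3 there were 0 counts in each normoxic library and 2 counts in all in the 4 hypoxic libraries, in replicates 1 and 4. Its level in normoxic PC3 was therefore at least 1411-fold lower than in normoxic HCT116, taking 3 counts per library as the floor. By the same floor, the level in hypoxic PC3 was at least 943-fold lower than in hypoxic HCT116. From the pooled PC3 counts, the ratio in hypoxia was 5773-fold with a 95% counting interval of 1598 to 47669. By pooled counts, the lower limit in normoxia was 4625-fold. A change of CA2 with oxygen in PC3 was not detectable at this depth, and CA2 was left out of the tests between lines.

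**Figure D2:**
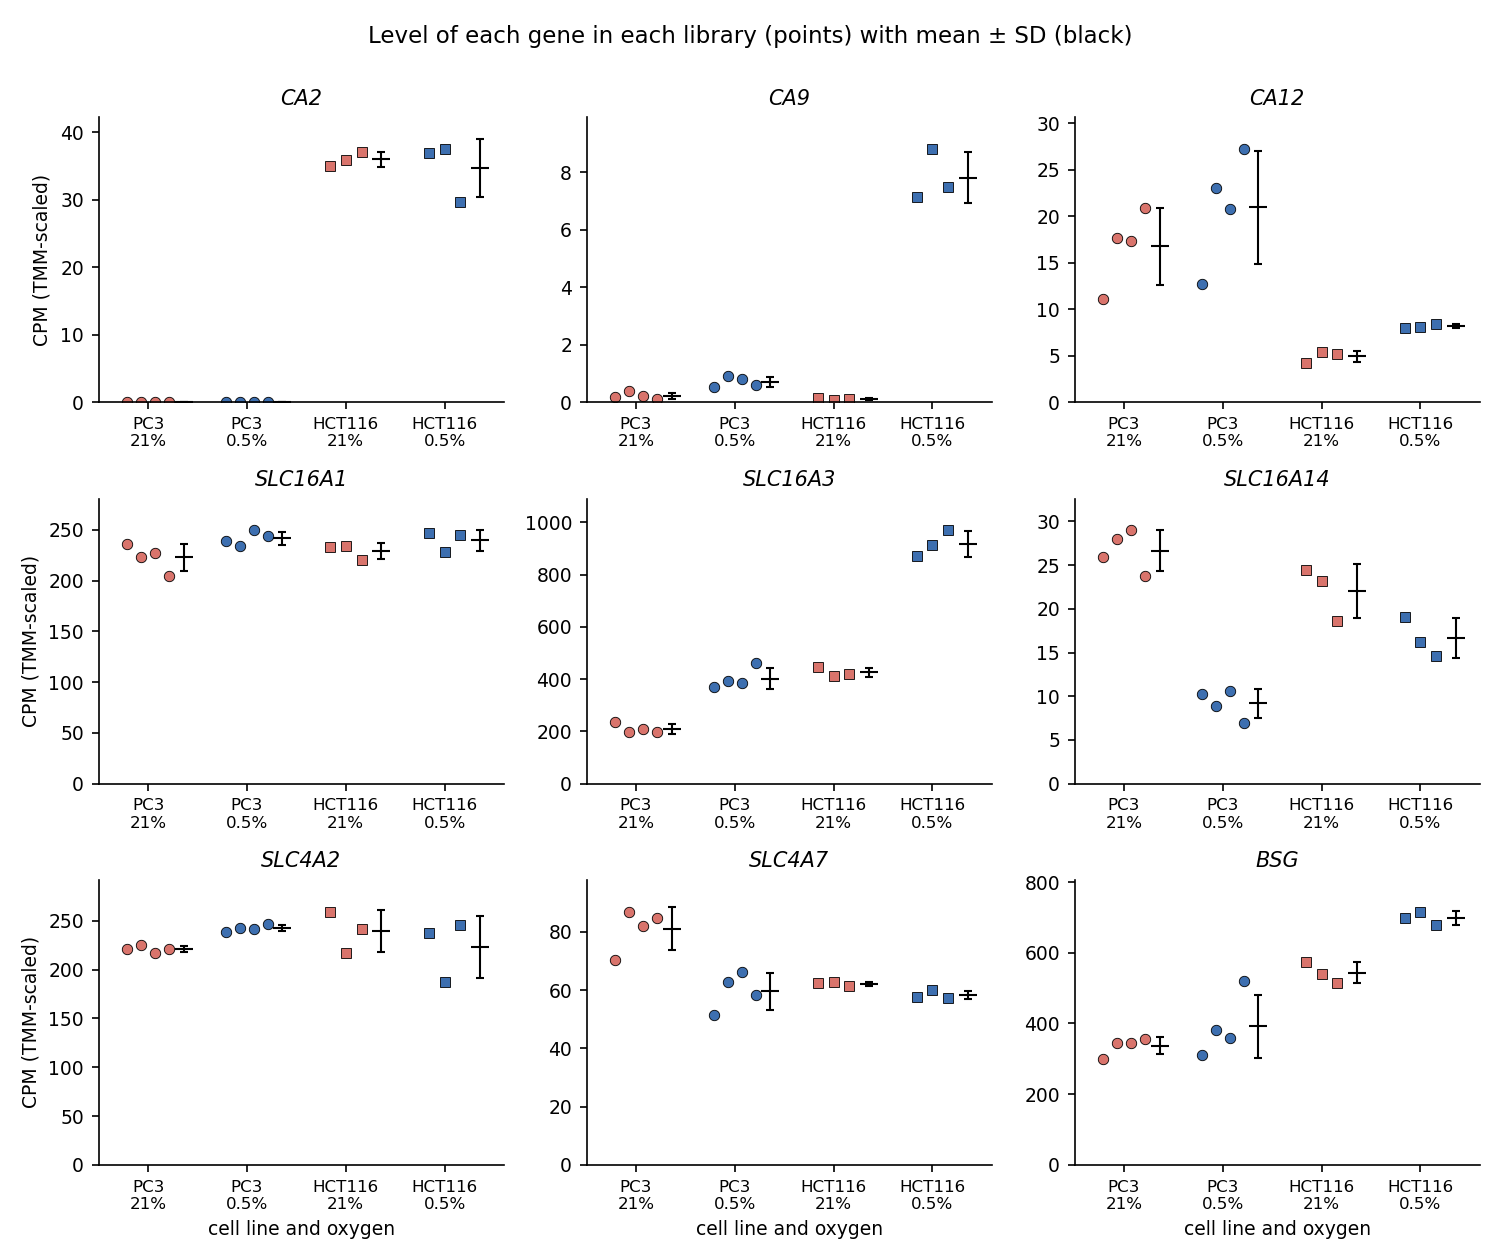
Level of each of the 9 genes in CPM in every library, by line and oxygen, on linear axes that start at 0 (circles PC3, squares HCT116, red normoxia, blue hypoxia), with the mean ± SD in black. The blue squares of CA9 and SLC16A3 and the blue circles of SLC16A14 stand clear of the other groups, and CA2 lies at or near 0 in every PC3 library.

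Of the lactate carriers, SLC16A3 (MCT4) rose in both lines while SLC16A1 (MCT1) passed the test in neither. SLC16A3 lies at chr17:80175810-80219005 on the plus strand. In PC3 it stood at 237, 196, 209 and 197 CPM in normoxia and at 369, 394, 385 and 459.8 CPM in hypoxia, and in HCT116 at 446, 412 and 420.1 CPM in normoxia and 871, 914 and 969.9 CPM in hypoxia. The conditions did not overlap in either line, and the normoxic HCT116 level, 426 ± 17.8 CPM (SD, n = 3), was close to the hypoxic PC3 level, 402 ± 40.0 (n = 4). The log2 fold change was 0.94 in PC3 (SE 0.096, adjusted p = 6.56e-04) and 1.12 in HCT116 (SE 0.065, adjusted p = 4.72e-07, both from edgeR). The difference between the responses, -0.17 (SE 0.13), had an adjusted p of 0.576 in edgeR. Of its exon bases, 5.22% lie opposite exons of CSNK1D.

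SLC16A1, at chr1:113454469-113500215 on the minus strand, ranged from 205 to 236 CPM in normoxic and from 234 to 249.6 CPM in hypoxic PC3, and from 219.8 to 234 and from 228 to 247 CPM in HCT116. The conditions overlapped in both lines. Its log2 fold change was 0.12 in PC3 (SE 0.069, adjusted p = 0.295) and 0.084 in HCT116 (SE 0.063, adjusted p = 0.359, both from edgeR).

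BSG, the partner of both carriers, lies at chr19:571277-583494 on the plus strand. In HCT116 it rose from 574, 541 and 515 CPM to 699, 717 and 679 CPM, a log2 fold change of 0.38 (SE 0.065, adjusted p = 0.00194, edgeR, n = 3), with no overlap. When all 14 libraries shared 1 fit the adjusted p was 0.108. In PC3 it stood at 301, 346, 346 and 357 CPM in normoxia and 311, 380.2, 358 and 519 CPM in hypoxia, where replicate 4 was the highest. The log2 fold change in PC3 was 0.22 (SE 0.14, adjusted p = 0.340, edgeR), and it was 0.062 without hypoxia replicate 4 (adjusted p = 0.653). The difference of -0.15 between the responses (SE 0.18) had an adjusted p of 0.774.

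SLC16A14, at chr2:230899698-230933709 on the minus strand, fell in both lines and fell more in PC3. Its PC3 levels were 25.9, 28.0, 29.0 and 23.7 CPM in normoxia and 10.3, 8.85, 10.6 and 6.96 CPM in hypoxia, so that every hypoxic library was below every normoxic one by a wide margin. The PC3 level in hypoxia was 0.293 to 0.396 of the normoxic level in the pairs of the same number. The log2 fold change was -1.53 (SE 0.14, adjusted p = 3.21e-04, edgeR, n = 4). In HCT116 the levels were 24.4, 23.2 and 18.6 CPM in normoxia and 19.1, 16.2 and 14.6 CPM in hypoxia, where the lowest normoxic library lay below the highest hypoxic one. There the log2 fold change was -0.39 (SE 0.12, adjusted p = 0.0308), and it was not past the threshold when normoxia replicate 1 or 2 or hypoxia replicate 2 or 3 was left out (adjusted p from 0.0696 to 0.124) or when all 14 libraries shared 1 fit (adjusted p = 0.0948, all by edgeR). With the replicate number as a block the adjusted p in HCT116 was 0.00360 (edgeR). The responses of the lines differed by -1.13 on the log2 scale (SE 0.20, adjusted p = 0.00795, edgeR interaction).

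Of the bicarbonate transporters, SLC4A7 fell in PC3 and SLC4A2 passed the edgeR test in neither line. SLC4A7, which brings bicarbonate into the cell and lies at chr3:27414212-27525911 on the minus strand, stood at 70.4, 86.9, 81.9 and 84.9 CPM in normoxic PC3 and at 51.3, 62.6, 66.1 and 58.3 CPM in hypoxic PC3. Every hypoxic library was below every normoxic one, and the log2 fold change was -0.44 (SE 0.090, adjusted p = 0.0159, edgeR, n = 4). Without normoxia replicate 2 the adjusted p was 0.0627 and without normoxia replicate 3 it was 0.0586. With the replicate number as a block the log2 fold change of SLC4A7 in PC3 was -0.44 (SE 0.053, adjusted p = 0.00200, edgeR). In HCT116 it stood at 62.3, 62.8 and 61.3 CPM in normoxia and 57.5, 60.0 and 57.4 CPM in hypoxia, a log2 fold change of -0.075 (SE 0.059, adjusted p = 0.377, edgeR) although the conditions did not overlap. The difference between the responses, -0.35 (SE 0.12), had an adjusted p of 0.162 without a block, of 0.0231 with the replicate number as a block and of 0.0471 without the PC3 libraries of replicate 1, all in edgeR.

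SLC4A2, the chloride-bicarbonate exchanger at chr7:150754297-150773613 on the plus strand, was the steadiest of the genes in PC3, with 217 to 225 CPM in normoxia and 239 to 246 CPM in hypoxia. These ranges did not overlap, but the rise was small and edgeR did not call it (log2 fold change 0.14, SE 0.055, adjusted p = 0.139), whereas DESeq2 did (0.15, adjusted p = 0.0130). In HCT116 its replicates spread from 217 to 259 CPM in normoxia and from 187 to 245 CPM in hypoxia (log2 fold change -0.084, SE 0.10, adjusted p = 0.577, edgeR).

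Over all members tested, the response differed between the lines for 2 of 8 genes, CA9 and SLC16A14, both with a lower response in PC3, where 2.32% of all genes were past the threshold of the interaction test, 1.01% with a higher and 1.31% with a lower response in PC3. With the replicate number as a block it was 4 of 8, with CA12 and SLC4A7 added, against 8.43% of all genes. SLC16A1 (0.049, adjusted p = 0.863) and SLC4A2 (0.23, adjusted p = 0.374) were not past the threshold of edgeR. The comparisons of the lines use the same libraries as the responses.

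The lines themselves differed in most genes of the genome. In normoxia 5 of 8 genes were past the threshold, 3 higher in PC3 and 2 lower, against 81.3% of all genes tested (42.4% higher and 38.9% lower). With CA2, which is left out here, it was 6 of 9. CA12 was higher in normoxic PC3 than in normoxic HCT116, 16.8 ± 4.12 CPM (SD, n = 4) against 4.95 ± 0.587 (n = 3), a log2 difference of 1.76 (SE 0.23, adjusted p = 4.14e-06, edgeR). SLC4A7 was also higher in PC3, by 0.38 on the log2 scale (adjusted p = 8.91e-04), and no PC3 library overlapped an HCT116 library for either gene. SLC16A3 was lower in PC3 (log2 difference -1.02, SE 0.088, adjusted p = 3.32e-08), as was BSG (-0.69, SE 0.13, adjusted p = 1.53e-04, all from edgeR). CA9 was higher in PC3 by 0.91 (SE 0.36, adjusted p = 0.0292), but its libraries overlapped. That call was lost without PC3 normoxia replicate 2 (adjusted p = 0.149), without HCT116 normoxia replicate 2 (0.105) or 3 (0.0644) and when the normoxic libraries were fitted alone (0.0858). SLC16A1 (-0.038), SLC4A2 (-0.12) and SLC16A14 (0.27) were not past the threshold, although SLC16A14 was when the normoxic libraries were fitted alone (adjusted p = 0.0498) or libraries were scaled by total count (0.0466).

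In hypoxia 5 of 8 genes were again past it, with 1 higher in PC3 and 4 lower, against 80.8% of all genes (41.8% higher and 39.0% lower). CA9 was now lower in PC3, by 10.9-fold (log2 difference -3.44, SE 0.28, adjusted p = 1.28e-08, edgeR), the opposite side from normoxia. SLC16A14 was lower by 0.86 on the log2 scale (log2 difference -0.86, SE 0.14, adjusted p = 4.29e-05), SLC16A3 was 2.29-fold lower and BSG 1.78-fold lower. CA12 stayed higher in PC3 (log2 difference 1.35, SE 0.23, adjusted p = 5.28e-05). SLC4A7, with a log2 difference of 0.032 (SE 0.087, adjusted p = 0.745, edgeR), was not past the threshold, nor were SLC16A1 (0.011, adjusted p = 0.878) and SLC4A2 (0.12, adjusted p = 0.219).

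Levels of different genes were compared as CPM per kb of exon, over the union of the exons of each gene in GENCODE. Reads were counted over RefSeq genes, whose exon lengths may differ, so the order of genes can depend on the lengths used. The length of CA9, here and in the ratios below, includes the bases that lie opposite ARHGEF39. BSG stood first in every group, from 76.3 ± 5.67 CPM per kb in normoxic PC3 to 158 ± 4.31 in hypoxic HCT116. SLC16A3 came after 3 others in normoxic PC3 (22.7 ± 2.04 CPM per kb), behind SLC16A1 (35.1 ± 2.09) and SLC4A2 (29.2 ± 0.443) as well as BSG, and next to BSG in the other 3 groups. In hypoxic HCT116 it reached 99.4 ± 5.35 CPM per kb. Below SLC4A7 (6.06 to 8.42 CPM per kb as group means) the order changed between groups. CA9 was last but 1 in PC3, ahead of CA2, at 0.141 ± 0.0699 and 0.448 ± 0.109 CPM per kb. In HCT116 it went from last in normoxia (0.0749 ± 0.0173) to place 7 in hypoxia (4.88 ± 0.554), above SLC16A14 (3.38 ± 0.459) and CA12 (1.17 ± 0.0327). Neighbours in this order did not overlap in their libraries, with the exception of CA12 and SLC16A14 in hypoxic PC3.

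**Figure D3:**
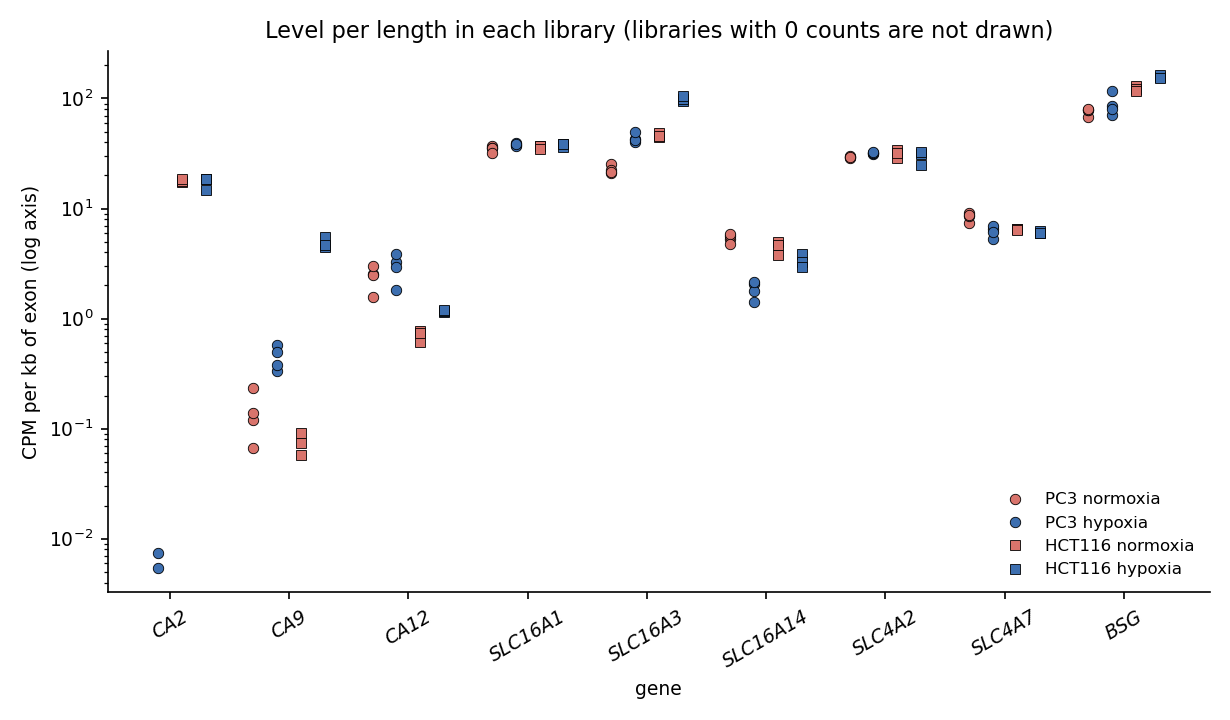
CPM per kb of exon in each library on a log axis, for each gene in turn (circles PC3, squares HCT116, red normoxia, blue hypoxia). BSG is highest in every group, and CA9 spans the widest range among the genes found in both lines. For CA2, all normoxic PC3 libraries and hypoxic PC3 replicates 2 and 3, at 0 counts, are not drawn.

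Ratios within a library do not depend on how libraries are scaled. The ratio of SLC16A3 to SLC16A1 per length was 0.688, 0.603, 0.631 and 0.661 in normoxic PC3 and 1.06, 1.15, 1.06 and 1.30 in hypoxic PC3. So by these lengths SLC16A1 was the more abundant transcript in every normoxic PC3 library and SLC16A3 in every hypoxic one. Without division by length, the normoxic PC3 means were 223 CPM for SLC16A1 and 210 CPM for SLC16A3. Which of them is higher there can thus depend on the lengths, and those of the RefSeq genes counted were not used. In HCT116 the ratio was 1.32, 1.21 and 1.31 in normoxia and 2.42, 2.75 and 2.72 in hypoxia, and no 2 groups overlapped other than hypoxic PC3 and normoxic HCT116. The group means were 0.646 ± 0.0366, 1.14 ± 0.112, 1.28 ± 0.0620 and 2.63 ± 0.182 (SD). With the length of the longest transcript in place of the union of exons they were 0.851, 1.51, 1.69 and 3.47, on the same side of 1.

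The ratio of CA9 to CA12 per length was 0.0620 ± 0.0303 in normoxic and 0.156 ± 0.0394 in hypoxic PC3 (SD, n = 4), with 0.0226 to 0.0929 and 0.0981 to 0.185 over the libraries. CA12 was thus the more abundant of the pair in all 8 PC3 libraries. In HCT116 the ratio went from 0.109 ± 0.0386 to 4.17 ± 0.499 (SD, n = 3), so CA9 was above CA12 in the 3 hypoxic HCT116 libraries alone.

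**Figure D4:**
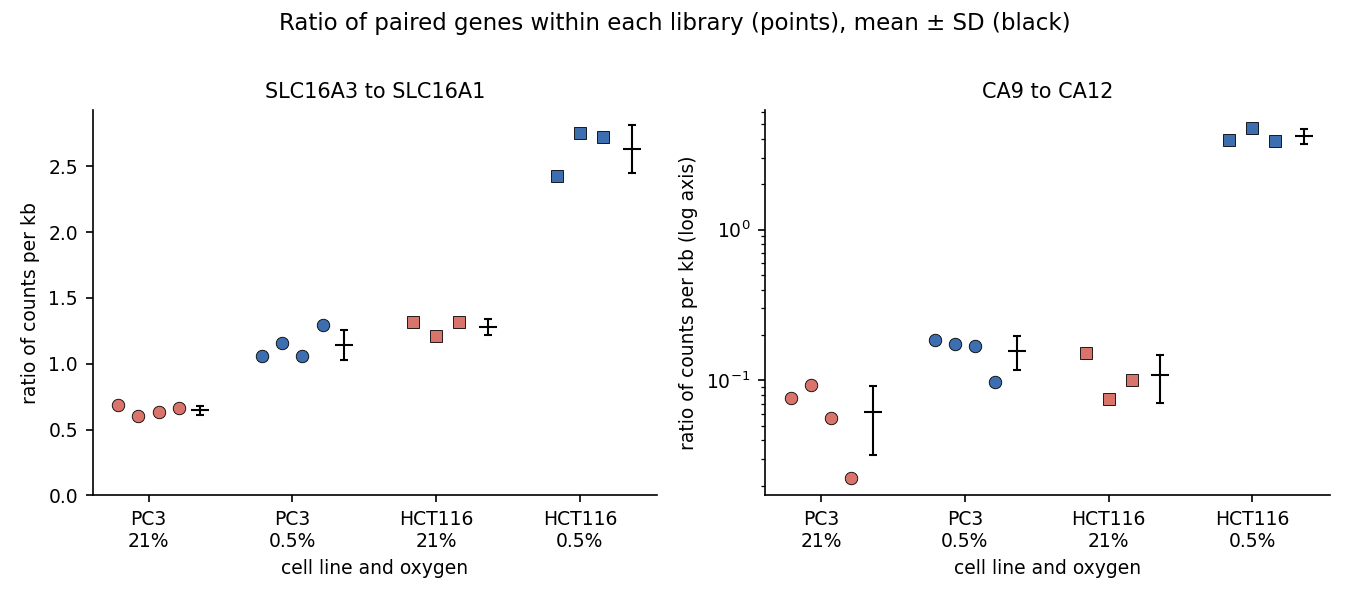
Ratio of SLC16A3 to SLC16A1 (left, linear axis from 0) and of CA9 to CA12 (right, log axis) in counts per kb of exon in each library, with the mean ± SD in black. With these lengths, the left ratio passes 1 between normoxic and hypoxic PC3, and the right one passes 1 in hypoxic HCT116, between 3.87 and 4.75.

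The 7 wider lists of genes that handle acid or lactate were counted in the same fits, to be read against 11.3% of all genes past the threshold in PC3 (28.5% with the replicate block and 17.4% by DESeq2) and 25.9% in HCT116. Counts at an unadjusted p under 0.05 are to be read against 3969 of 14309 genes in PC3 and 5463 of 14120 in HCT116 (edgeR). Of the other monocarboxylate carriers and their partners, 11 of 16 passed the filter in each line, with 2 lower and 0 higher among them in PC3, beside 2 in each direction in HCT116. In PC3, 1 was higher and 4 were lower at an unadjusted p under 0.05, DESeq2 called 0 higher and 3 lower, and edgeR with the replicate block called 5 of 11. SLC16A6 moved in opposite directions, from 2.96 ± 0.683 to 1.39 ± 0.155 CPM in PC3 (log2 fold change -1.09, SE 0.20, adjusted p = 0.00935) and from 13.5 ± 0.554 to 30.7 ± 3.24 CPM in HCT116 (1.20, SE 0.082, adjusted p = 2.13e-06). The difference between the responses was -2.27 (SE 0.22, adjusted p = 4.14e-05, edgeR interaction). SLC16A9 fell in PC3 (-0.45, adjusted p = 0.00644, interaction -0.48, adjusted p = 0.0443). SLC16A7, which encodes the carrier MCT2, fell in HCT116 (-0.60, adjusted p = 2.11e-04), as did the mitochondrial pyruvate carrier subunit MPC1 (-0.34, adjusted p = 0.0357), while SLC16A13 rose (0.57, adjusted p = 0.00701, edgeR).

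Of the lactate dehydrogenases, LDHA, which makes lactate from pyruvate, rose in both lines. It went from 3310.1 ± 207 to 5929 ± 912 CPM in PC3 (log2 fold change 0.85, SE 0.11, adjusted p = 0.00232) and from 1647 ± 43.2 to 5135 ± 343 CPM in HCT116 (1.66, SE 0.071, adjusted p = 4.22e-08), with a difference between the responses of -0.80 (SE 0.15, adjusted p = 0.0125, edgeR). LDHD rose in HCT116 (0.81, adjusted p = 0.0162). In all, 1 of 4 lactate dehydrogenases tested in PC3 and 2 of 3 in HCT116 were past the threshold, each higher (6.03% and 14.6% of all genes were higher).

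Of the sodium-proton exchangers, 1 of 9 was past the threshold in PC3 (4 of 9 with the replicate block) and 3 of 10 in HCT116, the latter near the share of all genes. In HCT116 2 of the 3 were higher, among them SLC9A7 (0.20), and SLC9B2 was lower (-0.29). In PC3, edgeR put 0 of the 22 proton pumps and channels tested past the threshold, where 4 had an unadjusted p under 0.05, DESeq2 called 3 and the replicate block gave 3. It was likewise 0 of 8 other genes of the SLC4 and SLC26 families, listed as bicarbonate carriers by family (2 at an unadjusted p under 0.05, 0 by DESeq2, 1 with the block). The same held for 0 of 4 other carbonic anhydrases (1, 0 and 0) and 0 of 4 receptors for protons and lactate (0, 0 and 1). In HCT116, 1 of 24 pumps and channels was higher (ATP6V0C, 0.21) and 2 were lower (ATP6V0A2, -0.32, and TCIRG1, -0.25). Of the listed SLC4 and SLC26 genes tested there, 2 of 6 were lower (SLC4A3, -0.41, and SLC4A11, -0.31), and 1 of 5 other carbonic anhydrases was lower (CA5B, -0.48). The single receptor tested in HCT116 was not past the threshold, with or without adjustment or by DESeq2.

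**Figure D5:**
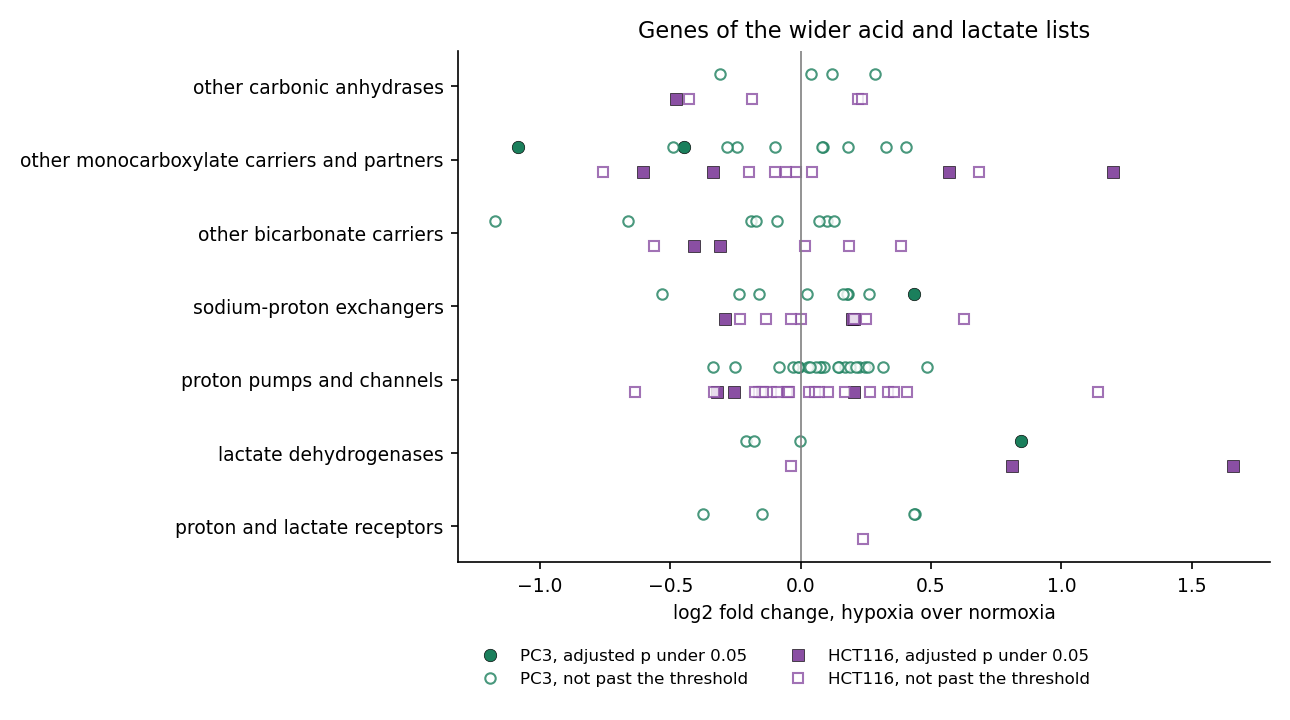
Log2 fold change, hypoxia over normoxia, of every gene of the 7 wider lists that was tested in PC3 (green circles) and HCT116 (purple squares), with filled symbols past an adjusted p of 0.05. Filled symbols beyond 0.80 belong to LDHA, LDHD and SLC16A6, and the filled PC3 circle farthest to the left, at -1.09, is SLC16A6.

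For 4 of the genes the transcripts with the most similar profile over the 14 libraries were sought, by the root-mean-square difference of log2 CPM after each gene was centred on its own mean, among 15493 genes. ALDOC (0.93), CXCR4 (0.93) and ANKRD37 (1.00) were nearest to CA9, where the median over all genes was 2.27. ALDOC ran from 15.6 CPM in normoxic to 32.0 CPM in hypoxic PC3 and from 13.3 to 183 CPM in HCT116. SERPINB1 (0.19), AFAP1L1 (0.22) and BTBD11 (0.25) were nearest to CA12 (median 1.02). MXI1 (0.15), B3GNT4 (0.17) and FOXD1 (0.17) were nearest to SLC16A3 (median 0.92), and MXI1 ran from 17.5 to 32.0 CPM in PC3 and from 38.7 to 67.9 CPM in HCT116. ANKRD36 (0.26), CATSPER2 (0.29) and BTN2A3P (0.30) were nearest to SLC16A14 (median 0.83), and all 3 were low, at 2.72 CPM or less as a group mean. Scaling by total count gave the same 3 genes for each.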

How the data were processed

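The deposited values are counts of reads per gene. Per the study's methods, the authors removed reads of the ERCC spike-in, mapped the rest to GRCh37 using HISAT2 (2.05) and obtained counts for RefSeq genes using HTSeq (0.5.4p3, intersection-strict). The methods also describe a scaling by ERCC reads, but the deposited counts are whole numbers that were taken as not normalised. The RefSeq release and the use of strand in counting are not given in the sources used here. ERCC counts and other assays were not used here.

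edgeR (4.0.16, R 4.3.3) was applied to the counts with filterByExpr, TMM scaling and the two-sided quasi-likelihood test, with Benjamini-Hochberg adjustment over all genes tested (14309 in PC3, 14120 in HCT116, 15493 over both lines) and a threshold of 0.05. Responses were fitted within each line, and the interaction of line and oxygen and the comparisons of lines over all 14 libraries. TMM takes most genes as unchanged and is blind to a shift of all mRNA together. Standard errors come from the log2 fold change and its F statistic (change over root F). CPM used the TMM factors of all 14 libraries. Log2 CPM for profiles had a prior count of 1. Positions and exon lengths are from GENCODE 44 lifted to GRCh37, and promoters from RefSeq (GRCh38.p14).

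The PC3 replicate numbers were taken to pair the libraries, which the sample titles do not state. For replicates 1 to 4, the deviations of both conditions from their means had correlations across genes of 0.675, 0.267, 0.140 and 0.282. Libraries of different numbers had -0.420 to 0.198, the highest above that of replicate 3, though each library correlated best with its own number. With this block the PC3 comparison called 4074 genes in place of 1620, and the interaction 1306 in place of 359. No replicate pair was a repeat of 1 library (chi-square of 12.1 to 257 per gene). Alternatives tried were scaling by total count, by upper quartile or by median of ratios, DESeq2 (1.42.0), no filter, each library left out in turn, a log2 fold change of at least 1, the replicate block, 1 fit over all libraries or over 1 oxygen level, and the longest transcript as length. The fit without both PC3 libraries of replicate 1 was added after the data were seen.

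Values were given for all 9 genes, CA2 being tested in HCT116 only. Of each wider list, up to 4 genes past the threshold per comparison, by the size of the change, could be named, and 3 nearest genes for CA9, CA12, SLC16A3 and SLC16A14. The 9 genes and the lists were chosen with earlier results of these data known. Markers and genes checking the oxygen labels were lists of the same kind. Some genes of the lists are not reported here.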

Additional observations from a re-analysis of the deposited data

Results flagged for a closer look

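The response to hypoxia differed between PC3 and HCT116 for 2 of the 8 genes tested, by the interaction of line and oxygen over all 14 libraries without a block (2.32% of all genes). With the replicate number as a block it was 4 of 8, against 8.43% of all genes. The block added CA12 and SLC4A7 (adjusted p = 0.0314 and 0.0231, edgeR). Without the block, the difference was -4.35 on the log2 scale for CA9 and -1.13 for SLC16A14 (edgeR quasi-likelihood test, adjusted p = 7.77e-05 and 0.00795). CA9 was higher in hypoxia in both lines and less so in PC3, and SLC16A14 was lower in both and more so in PC3. Leaving out each library in turn kept the difference of CA9 between -4.59 and -3.97 and that of SLC16A14 between -1.21 and -1.01. Line and medium cannot be told apart in either result. Among 22 groups of 4 PC3 libraries (levels, ratios and total counts), none had a gap from its highest or lowest library large enough for Dixon's 95% limit, which chance passes in about 1 of 20.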

How the results depend on the processing

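Over the alternatives, 773 of 806 values of single genes kept their side of the threshold, 25 were no longer past it and 8 came past it. The sign changed in 12 of them, for CA2, SLC16A1, SLC4A2 and SLC4A7 with scaling or without 1 library, with 0 past the threshold on either side. With a log2 fold change of at least 1 as well, the PC3 response had 204 genes and 2 of the 8 members past the threshold. That of HCT116 had 291 genes and 2 of the 9, and the interaction 107 genes. With CA2 left out, the lines had 6941 genes and 2 of the 8 members in normoxia and 7044 and 3 in hypoxia. With CA2 counted, the members were 3 and 4. DESeq2 gave 2568 genes in PC3 and 978 for the interaction. The replicate block gave 4074 genes in PC3, and 1306 genes with 4 of the 8 members for the interaction, and beyond CA12 and SLC4A7 as given above it changed no call of the 9 genes in PC3, HCT116 or the interaction. In HCT116 it is open whether the numbers pair. The same-number correlations there were 0.0429 to 0.138, the highest close to the 0.140 of PC3 replicate 3, and each library correlated best with its own number. In that line the block gave 3754 genes beside 3658. Between the lines, where numbers share only a name, the block brought SLC16A14 past the threshold in normoxia (adjusted p = 0.0101, edgeR). In 1 fit over all 14 libraries, PC3 had 2465 genes past the threshold and HCT116 1733, with 2 of the 9. Leaving out 1 library gave 553 to 2085 genes in PC3, with 2 to 4 of the 8 members (2 without normoxia replicate 3), and 177 to 717 for the interaction. PC3 had 574 without normoxia replicate 2, 728 without hypoxia replicate 2, 553 without normoxia replicate 3 and 908 without normoxia replicate 4. The interaction had 717 without PC3 hypoxia replicate 4, and 177 to 233 without PC3 normoxia replicate 2 or 3, PC3 hypoxia replicate 2 or any HCT116 library but hypoxia replicate 1. The cause of these changes was not tested. With the longest transcript as length, the median level per kb of the 9 genes was 10.0, 7.37, 23.1 and 22.2 CPM in normoxic and hypoxic PC3 and HCT116, and the ratio of SLC16A3 to SLC16A1 was 0.851, 1.51, 1.69 and 3.47. Among called genes the share that was higher was 53.3% for the PC3 response, but 39.4% with upper-quartile and 24.5% with total-count scaling. In HCT116 56.3% became 29.0% with total-count scaling, and for the interaction 43.5% became 29.3% with upper-quartile scaling. Total-count scaling put the median over all genes at -0.10 (log2) for the PC3 response and at 0.13 for the lines in normoxia. Depth limited CA2 in PC3.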

Other observations

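Outside the comparisons above, several transcripts of the wider lists stood at very different levels in the 2 lines, and those named here were chosen after their values were seen. HCAR1, the lactate receptor of the cell surface, stood at 12.1 ± 0.354 CPM (SD, n = 4) in normoxic and 10.9 ± 1.64 CPM in hypoxic PC3, with 0 counts in every normoxic HCT116 library and at most 1 in a hypoxic one. GPR4, a receptor that senses protons, was at 10.8 ± 4.56 CPM in normoxic PC3 and at 0.0467 ± 0.0120 CPM (n = 3) in normoxic HCT116. In the other direction, ATP6V0A1, a subunit of the vacuolar proton pump, was at 42.3 ± 1.13 CPM in normoxic HCT116 and at 0.0616 ± 0.0381 CPM in normoxic PC3, and LDHB was at 1535 ± 65.6 CPM against 304 ± 50.1.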
